A study of Mus musculus with 5 samples.

Results

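The smooth muscle contractile genes are 35 genes that build, anchor or control the contractile apparatus of the muscle wall. They were taken by name as genes of this apparatus, with earlier results of these data known. Each was represented by its brightest probe, except Tpm1, for which the next probe was used. All 35 were measured in the colon of mice, were well above background on all 5 arrays and were tested among 32917 features. They were compared between 2 Control mice and 3 mice whose colons were taken 3 hr after an intravenous dose of NT-3N, a modified human IL-11 that activates the IL-11 receptor. Every mouse was wild type and of the strain labelled C57BL/B6, and the injected animals are given as 8 weeks old. The dose is 10 mg in the text of the series and 10 µg in the methods, so its unit is unsettled. The sources describe the controls only as untreated or as Control, with no vehicle injection, so an effect of being injected and an effect of NT-3N cannot be told apart. Each array held the RNA of 1 mouse, and all 5 lay on 1 slide.

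The muscle wall of the colon holds an inner circular and an outer longitudinal layer of smooth muscle, with a thin muscle of the mucosa beneath the epithelium. These cells contract when calcium activates myosin light chain kinase, so that smooth muscle myosin pulls on thin filaments of smooth muscle actin, which are anchored in dense plaques and dense bodies. Transcription of many contractile genes depends on serum response factor (SRF), which binds a short motif called the CArG box, and on its coactivator myocardin. IL-11 is a cytokine of the gp130 family, and its receptor signals through STAT3 and ERK.

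Most of the contractile genes had lower values after NT-3N, and the lowest fold changes were those of Carmn, Myocd, Smtn, Lmod1 and Pdlim3. Of the 35 genes, 31 had a log2 fold change below 0 and 4 above 0, whereas 53.6% of all features lay below 0. The median log2 fold change was -0.30 against -0.02 over all features, and the genes ranged from -0.95 to 0.21. After adjustment over all features, 1 gene passed an adjusted p of 0.05 in limma, the long noncoding RNA Carmn, which fell. The same call was made for 0.0182% of all features downward and for 0.125% upward, and for none of the 35 upward. At an unadjusted p under 0.05, 15 of the 35 were lower and 1 was higher, where all features gave 4.67% and 4.95%. On 21 of the 35 every NT-3N array lay below both Control arrays and on 1 every NT-3N array lay above, where all features gave 14.8% and 13.5%. Single calls were fragile with so few mice. Without Control 1, Control 2, NT-3N 2 or NT-3N 3 no gene of the list passed, and without NT-3N 1 Carmn passed alone. The count at an unadjusted p was 8 without Control 2 and between 11 and 21 without any 1 of the other arrays, while the median stayed between -0.38 and -0.22. In RNA from whole colon, fewer muscle cells and less of each RNA per muscle cell cannot be told apart.

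**Figure D1:**
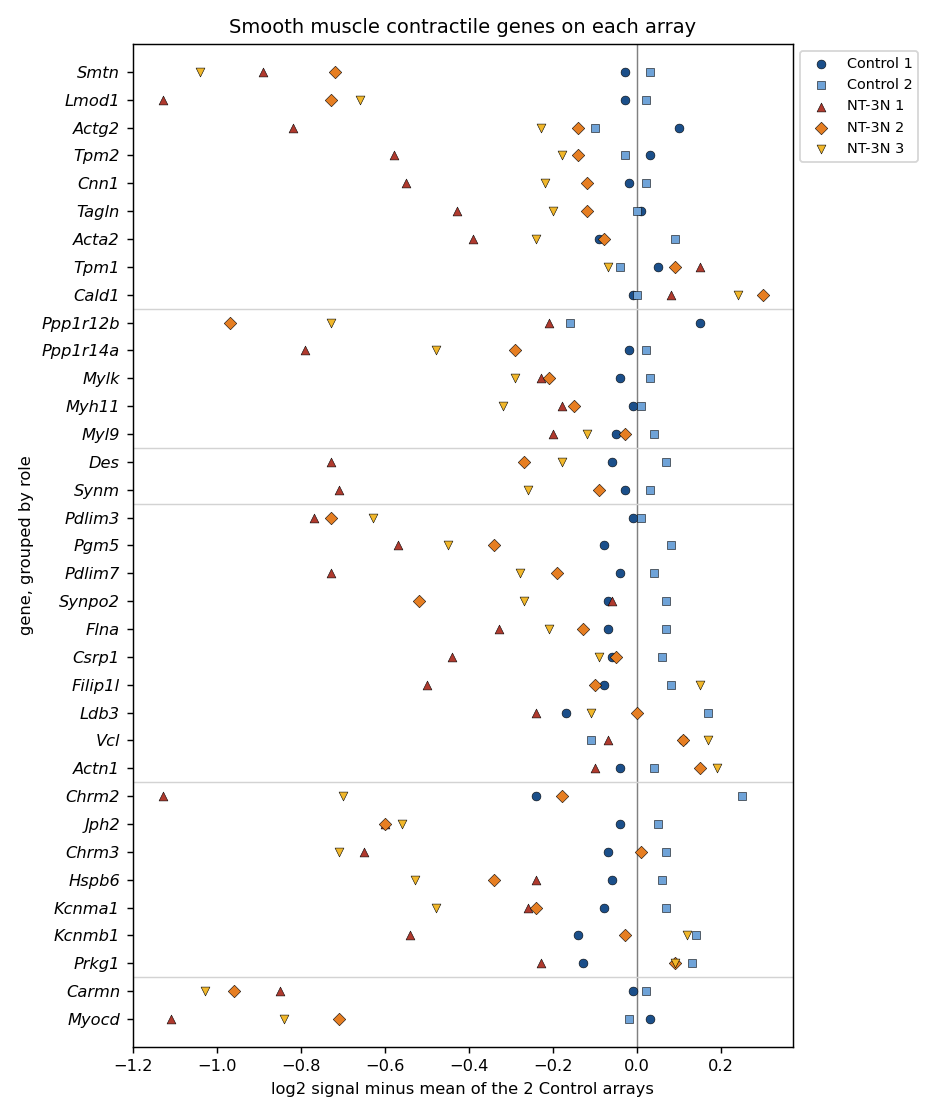
Log2 signal of each of the 35 genes on each of the 5 arrays, minus the mean of the 2 Control arrays for that gene (horizontal axis), with the genes grouped by role (vertical axis) and 1 marker per array. Most NT-3N markers lie left of 0 and the red triangles of NT-3N 1 are the lowest point for 22 of the 35 genes; where arrays coincide, as for Jph2 on NT-3N 1 and NT-3N 2, 1 marker covers the other.

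The arrays within a group did not stand equally. NT-3N 1 gave the lowest value for 22 of the 35 genes, NT-3N 3 for 8 and NT-3N 2 for 3, whereas over all features these arrays were lowest for 25.6%, 19.6% and 19.2%. Control 2 gave the highest value for 25 of the 35, against 20.2% of all features. The median deviation of the 35 genes from their own mean over the 5 arrays was 0.16 on Control 1, 0.23 on Control 2, -0.29 on NT-3N 1, 0.02 on NT-3N 2 and -0.10 on NT-3N 3, on the log2 scale. Hence 33 genes lay below the Control mean on NT-3N 1 and 29 on each of the other NT-3N arrays. Without NT-3N 1 the median log2 fold change was -0.22, with 28 genes below 0 and 18 lower at an unadjusted p under 0.05. The Control arrays were close to each other for these genes, with a median absolute difference of 0.0914 against 0.163 over all features, and 28 of the 35 were higher on Control 2. The median spread within groups (pooled SD) was 0.165 for the 35 genes and 0.179 for all features. A low NT-3N 1 was not particular to the contractile genes. By mean deviation it was also the lowest of the 5 arrays in several marker lists read below. That mean was -0.28 for the 35 genes, -0.29 for fibroblasts and -0.42 for muscle of the skeletal type. It was -0.18 for interstitial cells of Cajal, -0.14 for enteric neurons and glia, and 0.08 for epithelium. Between 70.58% and 72.9% of probes were well above background on each array, no spot was saturated, and the median processed signal ran from 92.32 to 115.8. Values below are log2 quantile-normalized signals, with the standard error of a log2 fold change in parentheses, and their precision is limited by how few arrays there were.

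Carmn and Myocd, regulators of the contractile program, had the lowest fold changes in the reported analysis, but Myocd lay close to Smtn (-0.89 against -0.88). The order changed with the setting. With normexp background correction Smtn gave -0.841, Lmod1 -0.704, Pdlim3 -0.703 and Myocd -0.689. Myocd also differed less than Smtn with array weights, where Ppp1r12b (-0.822) lay below Myocd (-0.795), and by the local-pooled-error test. With the replicate block Lmod1 was lowest at -0.926, beside Myocd at -0.913, Carmn at -0.91 and Smtn at -0.8. Carmn is a long noncoding RNA of smooth muscle that hosts the microRNAs miR-143 and miR-145 and supports the contractile state. Its signal was 13.63 and 13.66 on the Control arrays and 12.79, 12.68 and 12.61 on the NT-3N arrays. The groups did not overlap, and the gap was several times the spread within either group (13.64 ± 0.022, SD, n = 2, and 12.69 ± 0.088, SD, n = 3). Carmn fell by 0.95 on the log2 scale (SE 0.083, 95% interval -1.15 to -0.75, adjusted p = 0.024 in limma), to 0.518 of the Control level. It ranked 25 among all features by p. The fold change was stable over 17 alternative settings, from -0.995 to -0.91, but the adjusted p ran from 7e-05 to 0.49 and passed 0.05 in 10 of them. Myocd encodes myocardin, the SRF coactivator that drives the smooth muscle program. Its signal was 8.35 and 8.30 in Control and 7.21, 7.61 and 7.48 after NT-3N. All NT-3N arrays lay below both Control arrays, with a log2 fold change of -0.89 (0.15), but the adjusted p was 0.15 in limma.

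Among the 9 genes of the thin filament, 7 had a fold change below 0, 3 were lower and 1 was higher at an unadjusted p under 0.05, and the median was -0.30. Beside this and the later counts by role, all features gave 4.67% lower and 4.95% higher at that threshold. Smtn encodes smoothelin, an actin-binding protein of contractile smooth muscle cells. Its signal was 14.53 and 14.59 in Control and 13.67, 13.84 and 13.52 after NT-3N. The groups stood well apart, at a log2 fold change of -0.88 (0.11, interval -1.14 to -0.62), and the adjusted p of 0.062 in limma was just above the threshold. A further Smtn probe gave -0.82 (0.11). Lmod1 encodes leiomodin, which nucleates actin filaments in smooth muscle. Its signal was 8.17 and 8.22 in Control and 7.07, 7.47 and 7.54 after NT-3N. There was no overlap, and the difference was -0.84 (0.17) on the log2 scale (adjusted p = 0.22, limma).

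The actins and their main binding proteins differed less. Acta2, the actin of vascular smooth muscle and of myofibroblasts, had signals of 16.72 and 16.90 in Control and 16.42, 16.73 and 16.57 after NT-3N. NT-3N 2 lay just above Control 1, so the groups overlapped, and the log2 fold change was -0.24 (0.11, interval -0.49 to 0.02). Actg2, the enteric smooth muscle actin, read 14.81 and 14.61 in Control and 13.89, 14.57 and 14.48 after NT-3N. Only NT-3N 1 stood far from Control, and the log2 fold change of -0.40 (0.21, interval -0.89 to 0.10) did not pass even without adjustment. Cnn1, which encodes calponin, an inhibitor of the actomyosin ATPase, read 16.86 and 16.90 in Control and 16.33, 16.76 and 16.66 after NT-3N. Here too NT-3N 1 was lowest, and the log2 fold change was -0.30 (0.13). Tagln, which encodes the actin-bundling protein SM22, had a log2 fold change of -0.25 (0.097) with no overlap and an unadjusted p of 0.037 in limma. Tpm2, the beta tropomyosin that lies along the filament, gave -0.30 (0.14) with no overlap. A second, dimmer Tpm2 probe gave -0.88 (0.12), so the probes of this gene differed in size though not in direction. In Actg2, Tpm2, Cnn1 and Acta2 the lowest value was that of NT-3N 1. Without NT-3N 1, Actg2 gave -0.186, Tpm2 -0.156, Cnn1 -0.168 and Acta2 -0.156, and without Control 2 Acta2 gave -0.144.

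Cald1 was the only gene of the list that was higher at an unadjusted p under 0.05. It encodes caldesmon, which restrains actomyosin and has both a smooth muscle form and a shorter form in other cells. Its signal was 14.22 and 14.23 in Control and 14.31, 14.53 and 14.47 after NT-3N. Every NT-3N array lay above both Control arrays, and the log2 fold change was 0.21 (0.086) with an adjusted p of 0.51 in limma. A further probe gave 0.24 (0.089). The unadjusted p in limma was above 0.05 with median scaling and with normexp background correction. It was 0.052 with no filter on dim probes, 0.12 with no intensity trend and 0.099 with the replicate block. It lay between 0.11 and 0.14 without Control 1, Control 2, NT-3N 2 or NT-3N 3, and the local-pooled-error test gave 0.19. The sign held in all 17 alternative settings. The probes used do not separate the forms of caldesmon.

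Tpm1, which encodes alpha tropomyosin, was a case where 1 spot set the result. Its brightest probe gave 14.01, 13.91, 13.97 and 13.78 in the deposited log2 table on Control 2 and the NT-3N arrays, but 10.73 on Control 1. The scanner software had flagged that Control 1 spot as an outlier, and the deposited table keeps it. With it, Tpm1 appears higher after NT-3N by 1.52 on the log2 scale, from a mean of 12.37 to 13.89. Without Control 1, the same probe gave a difference of -0.12. The flagged spot was left out here and the next probe was used, which read 11.52 and 11.43 in Control and 11.62, 11.56 and 11.40 after NT-3N. Its log2 fold change was 0.05 (0.10), within the spread between arrays, and the dimmest probe gave -0.21 (0.12).

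**Figure D2:**
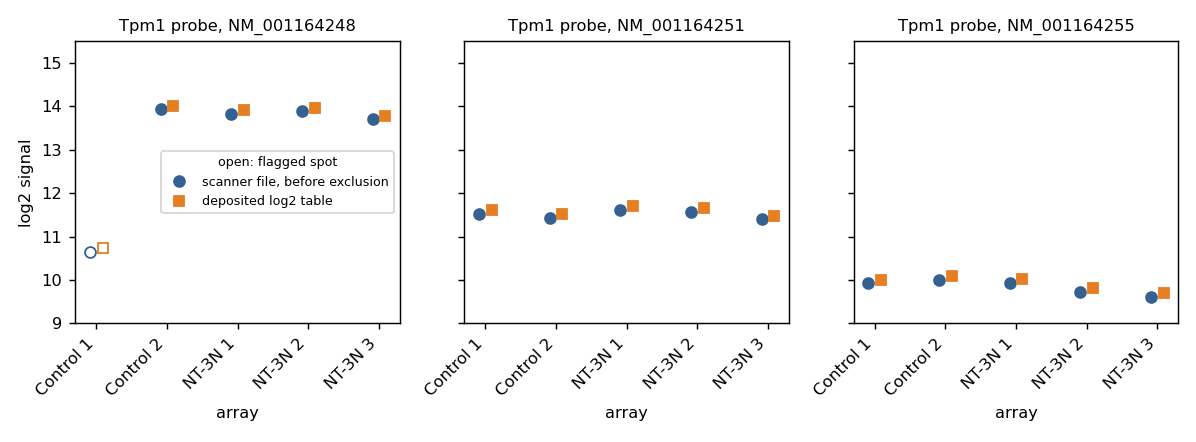
Log2 signal (vertical axis) of the Tpm1 probes, each named by its RefSeq transcript, on each array (horizontal axis), in the scanner files before outlier exclusion (circles) and in the deposited log2 table (squares), with open symbols for the flagged spot. The Control 1 spot of the brightest probe reads 10.64 and 10.73 where every other array lies between 13.70 and 14.01, and the other probes show no such gap.

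All 5 genes of the thick filament and of its light chain regulation had a fold change below 0, 4 of them at an unadjusted p under 0.05, with a median of -0.24. Myh11 encodes the myosin heavy chain of smooth muscle. It read 14.07 and 14.09 in Control and 13.90, 13.93 and 13.76 after NT-3N. The difference was small and without overlap, at -0.22 (0.08, interval -0.41 to -0.02), and further probes gave -0.30 (0.084) and -0.14 (0.11). Mylk encodes myosin light chain kinase, which switches contraction on, and read 14.51 and 14.58 in Control and 14.32, 14.34 and 14.26 after NT-3N. Its log2 fold change was -0.24 (0.069), and its other probes gave -0.30 (0.082) and -0.33 (0.091). Myl9, the regulatory light chain that the kinase phosphorylates, gave -0.11 (0.073) and its groups overlapped.

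Both regulators of myosin phosphatase, which reverses the action of the kinase, were lower at an unadjusted p under 0.05. Ppp1r14a encodes CPI-17, an inhibitor of myosin phosphatase, and read 11.90 and 11.94 in Control and 11.13, 11.63 and 11.44 after NT-3N. The groups did not overlap, and the log2 fold change was -0.52 (0.15) with an adjusted p of 0.37 in limma. Ppp1r12b encodes a targeting subunit of myosin phosphatase, and its brightest probe read 9.66 and 9.35 in Control and 9.30, 8.54 and 8.78 after NT-3N. NT-3N 1 lay only just below Control 2, and the log2 fold change was -0.64 (0.24). That probe is assigned to a noncoding transcript of the gene. A dimmer probe on a coding transcript gave -0.01 (0.18), so the difference is known only for the first.

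Both intermediate filament genes were below Control on every NT-3N array, as were 14.8% of all features, without passing an unadjusted p of 0.05. Des encodes desmin, the main intermediate filament of muscle, and read 13.74 and 13.87 in Control and 13.07, 13.53 and 13.62 after NT-3N. NT-3N 1 was again the lowest, and the log2 fold change was -0.40 (0.17, interval -0.81 to 0.01). Synm, which encodes the desmin partner synemin, gave -0.35 (0.18). Without NT-3N 1, Des gave -0.224 and Synm -0.175.

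Of the 10 genes of dense plaques and scaffolds, 8 had a fold change below 0, 3 were lower at an unadjusted p under 0.05 and the median was -0.20. Pdlim3 encodes ALP, a PDZ and LIM domain protein that binds alpha-actinin. Its signal was 13.42 and 13.44 in Control and 12.66, 12.70 and 12.80 after NT-3N. Each group was tight and the groups were far apart, with a log2 fold change of -0.71 (0.079, interval -0.90 to -0.52). The adjusted p was 0.052 in limma, and it passed 0.05 in 5 of the 17 alternative settings. Pgm5, a phosphoglucomutase relative found at cell adhesions of muscle, read 12.66 and 12.82 in Control and 12.17, 12.40 and 12.29 after NT-3N, a log2 fold change of -0.45 (0.10) without overlap. Flna, which encodes the actin cross-linker filamin A, gave -0.22 (0.087) without overlap, while a much dimmer probe gave 0.04 (0.12). Pdlim7, a relative of Pdlim3, gave -0.40 (0.17) without overlap, at an unadjusted p in limma of 0.05 that was not under the threshold.

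The brightest probes of the other scaffold genes did not pass an unadjusted p of 0.05 in limma. Synpo2, an actin-bundling protein, gave -0.29 (0.14), but its dimmer probe gave -0.74 (0.17, unadjusted p = 0.0044) with every NT-3N array below Control, and the mean of both probes gave -0.515. Synpo2 gave -0.169 without NT-3N 2. Csrp1, a LIM protein of the actin cytoskeleton, Filip1l, a relative of a filamin-binding protein, and Ldb3, a PDZ and LIM protein of muscle, gave -0.19 (0.13), -0.15 (0.19) and -0.12 (0.15). Vcl and Actn1, which encode vinculin and alpha-actinin and are made in many cell types, gave 0.07 (0.11) and 0.08 (0.11).

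All 7 genes of membrane coupling and contraction control had a fold change below 0, 3 of them at an unadjusted p under 0.05, with a median of -0.37. Jph2 encodes junctophilin, which holds the plasma membrane close to the calcium store. Its signal was 10.01 and 10.10 in Control and 9.45, 9.45 and 9.49 after NT-3N. The NT-3N arrays were nearly equal and all below Control, at a log2 difference of -0.59 (0.095) (adjusted p = 0.13, limma). Hspb6, a small heat shock protein phosphorylated during relaxation, read 11.51 and 11.63 in Control and 11.33, 11.23 and 11.04 after NT-3N, which gave -0.37 (0.12) without overlap. Kcnma1 encodes the pore of the BK potassium channel that damps contraction. It gave -0.32 (0.12) without overlap, and 4 further probes of it ranged from -0.36 to -0.17. Kcnmb1, the beta subunit of that channel in smooth muscle, gave -0.15 (0.22), and Prkg1, the cGMP-dependent kinase that mediates relaxation by nitric oxide, gave -0.02 (0.16). The muscarinic receptors that receive acetylcholine from enteric neurons were dim and variable. Chrm2 gave -0.67 (0.32, interval -1.44 to 0.09) and Chrm3 -0.45 (0.26), and in both the NT-3N arrays overlapped with Control.

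**Figure D3:**
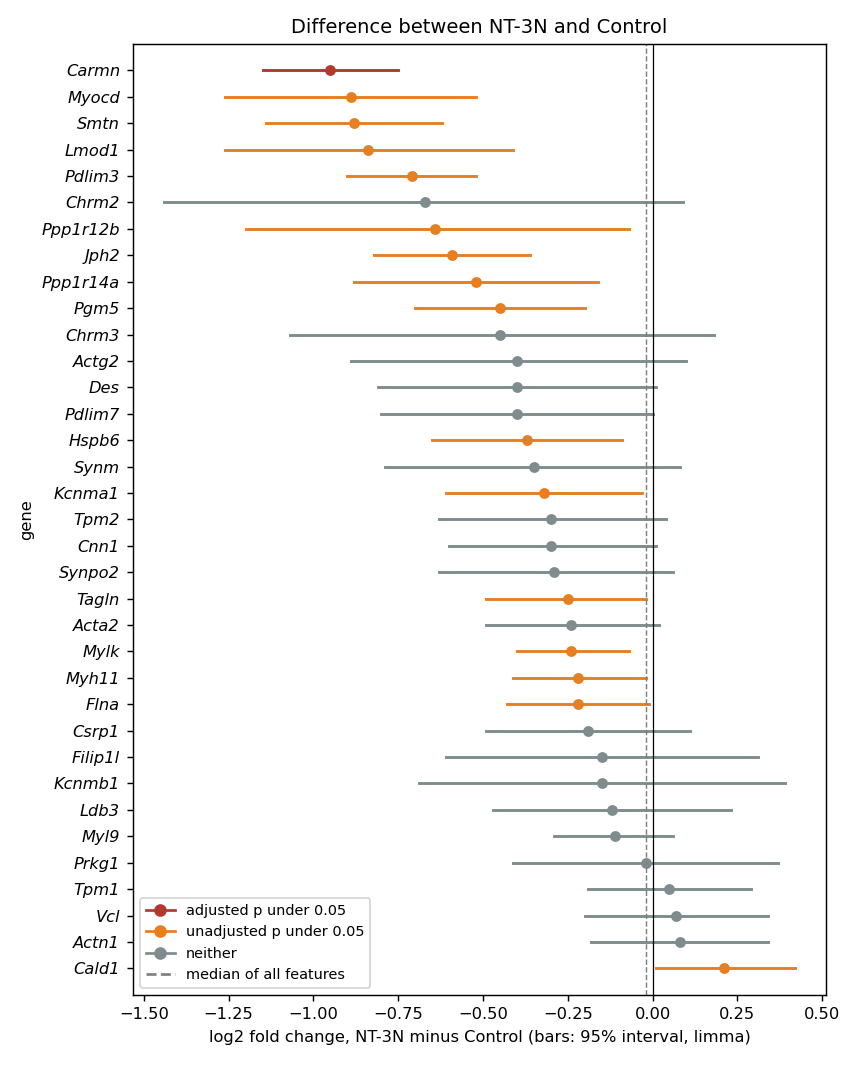
Log2 fold change of NT-3N against Control (horizontal axis) with its 95% interval from limma, for each of the 35 genes (vertical axis), coloured by whether it passed an adjusted or an unadjusted p of 0.05; the dashed line is the median of all features at -0.02. Carmn at -0.95 passed after adjustment, 15 intervals lie wholly below 0 and the interval of Cald1 lies wholly above 0.

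Further probes allowed a look at the same genes through other oligos. The 35 genes had 63 probes, and 26 of the 28 further probes were tested, in 20 genes. The fold change had the same sign as that of the probe used in 23 of the 26. The 3 of opposite sign were in Actn1, Flna and Tpm1, none under an unadjusted p of 0.05 in limma. Probes of 1 gene are read from the same mice and are not further replicates.

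The promoters of the genes were read for the CArG box, because SRF and myocardin act through it. RefSeq windows of build GRCm38.p6, from 250 bases before to 50 after a start, were given for 30 of the 35 genes and held 38 starts. Actg2, Tagln, Myh11, Myocd and Carmn had no entry. A CArG box on either strand was found in 4 of the 30 genes (13.3%: Myl9, Vcl, Ldb3 and Filip1l), against 1.81% of 27025 genes. A box with 1 C or G within its core was found in 6 of the 30 (20%: Acta2, Myl9, Synm, Pdlim3, Hspb6 and Jph2), against 9.69% of all genes. The STAT site TTCNNNGAA was found in 1 of the 30 (3.33%: Ppp1r12b, at -173), against 9.55%. These are matches of letters, not evidence of binding, and boxes further away or in introns were not searched. The following 5 windows run from 250 bases before the start to the base before it and are read 5′ to 3′. They are shown because they hold a CArG box of either form (in capitals) in genes with large (Pdlim3, Jph2), small (Acta2, Myl9) and near-0 (Vcl) differences.
Pdlim3, chr8:45885237-45885486, plus strand: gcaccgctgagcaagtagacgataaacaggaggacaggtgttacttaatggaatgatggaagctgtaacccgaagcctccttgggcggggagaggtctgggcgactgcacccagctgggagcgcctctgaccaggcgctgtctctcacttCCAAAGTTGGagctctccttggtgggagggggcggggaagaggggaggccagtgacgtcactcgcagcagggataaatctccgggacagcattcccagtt
Jph2, chr2:163397994-163398243, minus strand: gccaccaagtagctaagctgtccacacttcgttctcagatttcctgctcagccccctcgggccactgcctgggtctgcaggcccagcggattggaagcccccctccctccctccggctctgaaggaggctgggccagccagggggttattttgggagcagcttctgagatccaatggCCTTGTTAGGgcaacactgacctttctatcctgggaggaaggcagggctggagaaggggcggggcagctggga
Acta2, chr19:34255374-34255623, minus strand: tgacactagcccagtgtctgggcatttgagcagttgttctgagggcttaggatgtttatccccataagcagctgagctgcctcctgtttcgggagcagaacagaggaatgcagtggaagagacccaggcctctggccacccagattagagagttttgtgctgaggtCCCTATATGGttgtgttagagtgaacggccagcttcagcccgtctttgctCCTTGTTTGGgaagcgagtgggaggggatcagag
Myl9, chr2:156775214-156775463, plus strand: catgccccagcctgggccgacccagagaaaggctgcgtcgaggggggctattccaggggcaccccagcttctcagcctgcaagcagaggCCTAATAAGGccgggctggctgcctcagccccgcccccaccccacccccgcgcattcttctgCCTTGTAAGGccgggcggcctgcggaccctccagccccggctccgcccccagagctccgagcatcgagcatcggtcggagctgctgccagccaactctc
Vcl, chr14:20929148-20929397, plus strand: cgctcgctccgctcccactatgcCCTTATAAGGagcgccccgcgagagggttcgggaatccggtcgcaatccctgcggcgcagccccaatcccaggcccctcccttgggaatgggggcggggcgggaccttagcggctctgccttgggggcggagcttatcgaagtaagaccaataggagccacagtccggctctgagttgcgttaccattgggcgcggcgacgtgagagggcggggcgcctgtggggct
Counted back from the base before the start as -1, the boxes begin at -100 in Pdlim3 and -73 in Jph2, whose log2 fold changes were -0.71 and -0.59. Both of these boxes have 1 C or G in the core. In Acta2 the boxes begin at -84 and -34, both also of that form, with a fold change of -0.24. Myl9 holds an exact box at -161 and a box with 1 C or G in the core at -99, with a fold change of -0.11. The exact box of Vcl begins at -227, with a fold change of 0.07. Ldb3 and Filip1l, which hold an exact box, gave -0.12 and -0.15. Smtn and Lmod1, with differences of -0.88 and -0.84, held neither form of the box in their windows.

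Genes that work with the contractile apparatus were read from lists of related genes. Beside the counts for these lists, 4.67% of all features were lower and 4.95% higher at an unadjusted p under 0.05. A list of 12 transcription factors held Srf, Mrtfa and Mrtfb beside other factors, such as Tead1, Foxf1, Gata6 and Klf4, and did not hold Myocd. Its counts are thus not those of the SRF pathway alone. None of the 12 passed an adjusted p of 0.05 in limma, 2 were higher and 0 lower at an unadjusted p under 0.05, and the median was -0.02. Srf itself gave -0.15 (0.091), and Mrtfa and Mrtfb, the relatives of myocardin that respond to actin, gave -0.06 (0.088) and 0.05 (0.092). Those higher at an unadjusted p were Tead1, at 0.29 (0.088), and Foxf1, a factor of gut mesenchyme, at 0.53 (0.18).

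Among 12 tested genes of calcium entry and stores, 5 were lower and 0 higher at an unadjusted p under 0.05, none after adjustment in limma, and the median was -0.23. That median rested on single arrays, at -0.081 without Control 2 and -0.126 without NT-3N 1. Pln, which encodes phospholamban, a brake on the store's calcium pump, read 7.33 and 7.80 in Control and 6.42, 6.50 and 6.87 after NT-3N, a log2 fold change of -0.97 (0.21). Sln, the related pump inhibitor sarcolipin, gave -0.76 (0.20), Atp2b4, a calcium pump of the plasma membrane, gave -0.59 (0.13), and Cacna1c, the pore of the L-type calcium channel, gave -0.31 (0.11). The store pump itself, Atp2a2, gave 0.00 (0.084).

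Among 20 genes of cell attachment and the dystrophin complex, 1 fell at an adjusted p under 0.05 in limma, 7 were lower and 0 higher at an unadjusted p under 0.05, and the median was -0.11. Svil encodes supervillin, which links actin and myosin to the membrane. It read 12.06 and 12.18 in Control and 11.19, 11.31 and 11.30 after NT-3N, and fell by 0.85 on the log2 scale (SE 0.091, adjusted p = 0.047 in limma). That call held in 6 of 17 alternative settings, over which the adjusted p ran from 0.0093 to 0.49, and it lay between 0.15 and 0.24 without Control 1, Control 2, NT-3N 2 or NT-3N 3. Tns1, the focal adhesion protein tensin, gave -0.51 (0.097), and Cav1 and Cavin3, which shape caveolae, gave -0.55 (0.14) and -0.44 (0.098). Among 20 other genes expressed in smooth muscle, 6 were lower and 0 higher at an unadjusted p under 0.05, none after adjustment in limma, with a median of -0.11 that ran from -0.252 to -0.142 when any 1 array was left out and was -0.288 with the replicate block. The RNA-binding proteins Rbpms2 and Rbpms gave -0.72 (0.12) and -0.70 (0.13), the amine oxidase Aoc3 gave -0.86 (0.14), and the small heat shock protein Cryab gave -0.69 (0.13).

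Paralogues of these genes, most but not all of them forms used by non-muscle cells, were read on the same arrays. Of 17 tested, none passed even an unadjusted p of 0.05 in limma, their median log2 fold change was -0.02 and they ranged from -0.22 to 0.25. Actb and Actg1, the cytoplasmic actins, gave -0.04 and 0.08. Actg2 gave -0.40 (0.21) and Acta2 -0.24 (0.11), both with intervals that reached above 0. Myh9 and Myh10, the non-muscle myosin heavy chains, gave 0.11 and -0.14 against -0.22 for Myh11. Tagln2 gave -0.11 against -0.25 for Tagln, and Cnn2 and Cnn3 gave -0.22 and 0.25 against -0.30 for Cnn1. The difference between the lists was not tested, and each pair of values comes from the same 5 arrays.

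**Figure D4:**
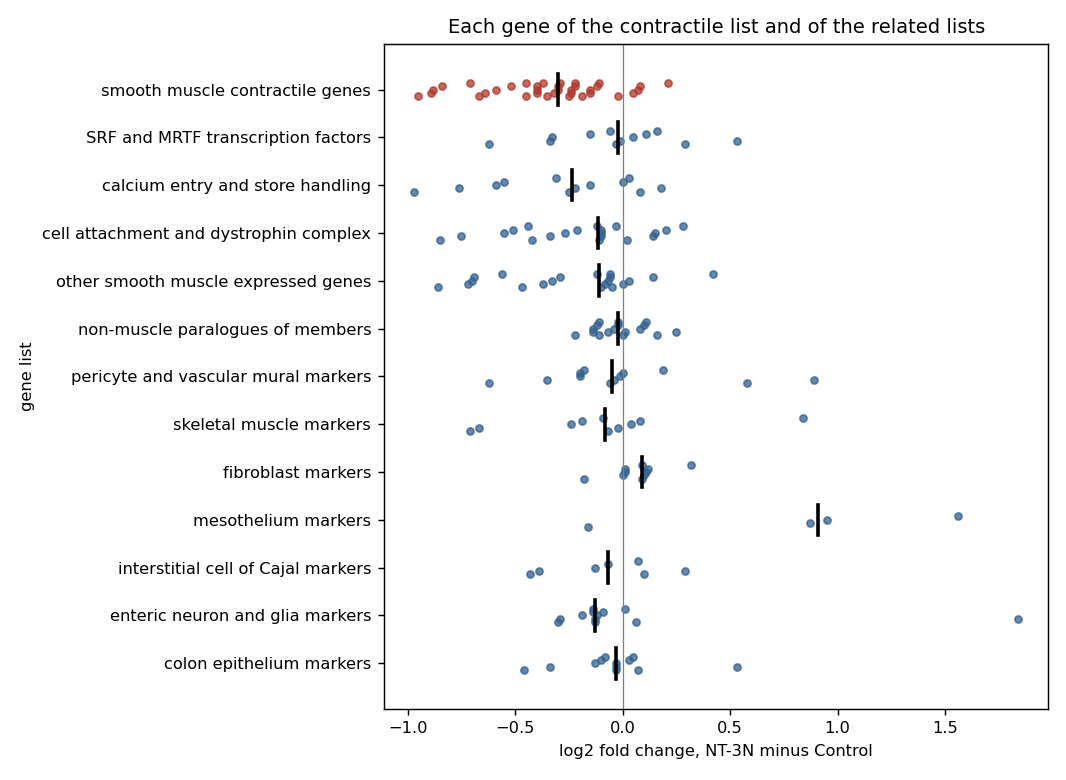
Log2 fold change of NT-3N against Control (horizontal axis) for every tested gene of the contractile list and of 12 related lists (vertical axis), with 1 point per gene and a black bar at the median of the list. The contractile genes have a median of -0.30 and the non-muscle paralogues lie between -0.22 and 0.25, and the mesothelium median of 0.91 rests on 4 genes.

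Markers of the other cells of the colon wall were set beside these values, as the log2 of their summed signal on each array. The signals were summed unlogged, so the brightest markers of a list weighed most. The summed contractile signal was 19.83 and 19.89 in Control and 19.45, 19.74 and 19.66 after NT-3N, lower on every NT-3N array. The 12 epithelium markers summed to 20.27 to 20.28 in Control and 20.17 to 20.33 after NT-3N, and 0 of 12 passed an unadjusted p of 0.05 in limma. For 10 fibroblast markers the ranges were 16.03 to 16.17 and 15.86 to 16.45, with 1 higher at an unadjusted p under 0.05 (Dcn, which encodes decorin, 0.32, SE 0.13). The markers of muscle of the skeletal type, of which 10 of 12 were tested, ranged from 12.12 to 12.18 and from 11.71 to 12.21, with Ckm, muscle creatine kinase, at -0.67 (0.14) and Tnni2, a fast troponin, at 0.84 (0.24). In this list and among the fibroblast markers the lowest sum was that of NT-3N 1.

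The lists for interstitial cells of Cajal, enteric neurons and glia, and pericytes and mural cells also had medians below 0. So had all features, with a median of -0.02 and 53.6% below 0. The epithelium markers had a median of -0.03, with 8 of 12 below 0. The median was -0.07 for interstitial cells of Cajal (-0.222 without Control 1), with 4 of 7 genes below 0. It was -0.13 for enteric neurons and glia, with 9 of 12 below 0, and -0.05 for pericytes and mural cells. The 7 markers of interstitial cells of Cajal, the pacemakers of the gut, summed to 14.88 to 15.18 in Control and 14.68 to 15.42 after NT-3N, with only Etv1 lower at an unadjusted p under 0.05, at -0.43 (0.12). The lowest of these sums was that of NT-3N 1. Ano1 and Thbs4, at Control means of 13.84 and 13.69, weighed most in them. The 12 markers of enteric neurons and glia, led by Snap25 at a Control mean of 14.75, ranged from 15.23 to 15.29 and from 14.99 to 15.20. Gfap of the glia rose within them, by 1.84 on the log2 scale (SE 0.13, adjusted p = 0.012 in limma), a call that held in 12 of 17 alternative settings and was lost without NT-3N 2 (adjusted p = 0.089), without NT-3N 3 (0.13), with no filter on dim probes (0.072), with no intensity trend (0.057) and with the replicate block (0.35). The 12 markers of pericytes and vascular mural cells ranged from 13.45 to 13.48 and from 13.60 to 13.67, but 9 of the 12 had a fold change below 0. Without Kcnj8, a choice made after seeing the data, the sum was 13.15 and 13.17 in Control and 13.21, 13.01 and 13.04 after NT-3N. Those under an unadjusted p of 0.05 were Cspg4 at -0.62 (0.16), Higd1b at -0.35 (0.13) and Kcnj8, a potassium channel subunit, at 0.89 (0.10, adjusted p = 0.055 in limma). The mesothelium, which covers the outer surface, had 4 of 7 markers tested, and their summed signal was 7.66 and 8.08 in Control, 7.90 and 8.10 on NT-3N 1 and 2 and 9.58 on NT-3N 3. Only 2 of these 4 were above background on all arrays. How far differences in the cells sampled took part in the lower contractile signal was not tested.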

How the data were processed

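RNA of whole colon was hybridised to single-colour (Cy3) Agilent mouse arrays, 1 mouse per array. The authors extracted spot values with Agilent Feature Extraction 11.0.1.1, per the labels, and the deposited scanner files hold a background-subtracted, detrended intensity that was not scaled between arrays. A second deposited table gives log2 values of 37380 probes, which the authors had quantile-normalized from those intensities; it served as an alternative.

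From the scanner files, control spots and between 69 and 184 outlier spots of 59305 per array were left out. Log2 processed signals were averaged per probe and quantile-normalized. Probes well above background on at least 2 arrays, with both Control and at least 2 NT-3N values, were kept. Accessions gave symbols to 32994 of 56605 probes through a RefSeq table of GRCm38.p6, and a gene was represented by its brightest kept probe. The array design refers to another build, so no probe coordinates are given. NT-3N was tested against Control in R 4.3.3 by two-sided limma 3.58.1 (lmFit, then eBayes with trend), with Benjamini-Hochberg adjustment over 32917 features. The local-pooled-error test that the study used was an alternative, together with other scalings, background correction, filters, variance models, probe rules, a replicate block and leaving out each array.

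The 35 genes and all lists were chosen with earlier results of these data known. All 35 are named, and 1 further list of related genes is not reported here. Values on every array are given for the 12 genes with the smallest p among those without overlap, and for Acta2, Actg2, Myh11, Des and Cnn1; other values on single arrays were chosen after they were seen. From each related list, calls after adjustment and up to 4 genes with the smallest unadjusted p under 0.05 are named; Srf, Mrtfa, Mrtfb, Atp2a2 and the paralogues were named after their values were seen. In simulated data for this comparison, with 32910 features, 29.8% of 2-fold changes and 67.4% of 4-fold changes were found by limma, with 4.71% false among its calls. The spread of each simulated feature was drawn from the distribution that limma fitted to these arrays, with independent normal errors. The share of false calls by limma was thus near its nominal level by design.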

Additional observations from a re-analysis of the deposited data

How the results depend on the processing

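Over the 17 alternatives the median log2 fold change of the 35 genes stayed below 0 and moved by less than the spread between arrays (0.107), and no gene was higher after adjustment in any of them. The number lower after adjustment in limma, 1 in the reported analysis (Carmn), was 2 with the deposited log2 values (Carmn and Pdlim3), 3 with the requirement of signal above background on all arrays and with robust variance (Carmn, Pdlim3 and Smtn), and 4 with array weights (these and Jph2). It was 0 with no filter on dim probes and with no intensity trend, and from 0 to 1 when each array was left out. The local-pooled-error test called 3 (Carmn, Pdlim3 and Smtn). In the simulated data 54.3% of its calls were false, but those data were drawn from limma's own model, so they cannot rank the tests. The number lower at an unadjusted p, 15 as reported, was 9 with no intensity trend, 8 by the local-pooled-error test and from 8 to 21 when each array was left out. The number higher at an unadjusted p, 1 as reported (Cald1), was 0 with median scaling, with normexp, with no filter, with no trend and by the local-pooled-error test, and from 0 to 1 when each array was left out.

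With the replicate number as a block, 0 genes were lower after adjustment, 16 were lower and 0 higher at an unadjusted p, and the median was -0.30. The pairs of equal number share only a number (their deviations correlated at 0.13 and 0.036), so the block was not used.

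Signs turned only for genes near 0. Prkg1 gave 0.054 with array weights and 0.086 by the local-pooled-error test. With the mean of all probes, Tpm1 gave -0.079 and Actn1 -0.023. When each array was left out, Tpm1 ranged from -0.128 to 0.114, Vcl from -0.042 to 0.18, Ldb3 from -0.294 to 0.056, Prkg1 from -0.151 to 0.11, Filip1l from -0.302 to 0.027 and Kcnmb1 from -0.295 to 0.047. Among the related lists, the mesothelium median moved most, from -0.09 without NT-3N 3 to 1.53 without NT-3N 1. The causes were not tested. With 2 Control and 3 NT-3N mice, differences near 2-fold often miss the adjusted threshold.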
